A study of Mus musculus with 9 samples.

Results

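The glutathione transferases, peroxidases and dismutases are the enzymes that remove peroxides, superoxide and electrophiles in ST2 cells. They were taken from the deposited gene table by symbol among protein-coding genes: the cytosolic glutathione transferases (Gst, 22 genes), the microsomal ones (Mgst, 3), the glutathione peroxidases (Gpx, 8), the peroxiredoxins (Prdx, 6) and the superoxide dismutases (Sod, 3), together with catalase (Cat) and glutathione reductase (Gsr). This gave 44 genes of 54532 in the table, of which 22046 were protein coding. Of the 44, 29 had enough counts to be tested, 11 had a few counts and 4 (Gstk1, Gpx2, Gpx5 and Gpx6) had none in any library. In ST2 cells rhWnt3a lowered 4 of the 29, Gstm1, Gstt1, Gstt3 and Sod3, and raised none by the test used, which called 8.78% of all tested genes. Adding OSMI to rhWnt3a raised Gstm1, whose libraries then overlapped with vehicle, and changed no other member by that test (4.74% of all tested genes were called), while Gstt1, Gstt3, Sod3 and Mgst3 were then lower than with vehicle (14.2%).

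Superoxide dismutases turn superoxide into hydrogen peroxide, which catalase, the glutathione peroxidases and the peroxiredoxins reduce to water. Most glutathione peroxidases draw their electrons from glutathione, which glutathione reductase restores with NADPH, and most peroxiredoxins draw theirs from thioredoxin. Glutathione transferases join glutathione to electrophilic compounds, among them products of lipid oxidation, and several of these genes are known targets of the transcription factor NRF2. In cells of the osteoblast lineage an excess of reactive oxygen species is known to hold back bone formation.

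ST2 is a mouse bone marrow stromal cell line that can be driven toward osteoblasts, and the study asked how O-GlcNAcylation takes part in the response of such cells to Wnt. Cells labelled as wild type received vehicle, recombinant human Wnt3a (rhWnt3a, 50 ng/ml), or rhWnt3a and OSMI (20 µM), an inhibitor of the O-GlcNAc transferase OGT, and RNA was taken after 72 h. Each group had 3 libraries of poly-A RNA, named biological replicates by the study, all from this single line, and there was no group with OSMI alone, so an effect of OSMI without rhWnt3a was not measured. That the last group held rhWnt3a as well as OSMI follows from its sample titles and the study's results, whereas its treatment label names OSMI alone.

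Depth was nearly equal, with 16417002 to 17583945 counts per vehicle library, 16811833 to 17393439 per rhWnt3a library and 16135898 to 17022987 per library of rhWnt3a with OSMI. The unit of comparison was CPM, a count scaled to the total of its library, and 3 counts equal 0.171 to 0.186 CPM. Of 11 markers of stromal cells, 9 had at least 10 counts in every library, but Lepr and Thy1 had at most 4. Of 6 hematopoietic markers, 5 had 3 counts or fewer throughout, with Itgam and Cd3e at 0, and so had 2 of 4 endothelial markers. A gene was called changed when its adjusted p was under 0.05 and its log2 fold change larger than 0.5 in either direction, in a quasi-likelihood fit of all 9 libraries with edgeR (TMM scaling, two-sided test, Benjamini-Hochberg adjustment over 14004 tested genes). With 3 libraries against 3, an exact permutation test of a single gene cannot go below p = 0.1, so the calls rest on a spread shared across genes. In such bulk samples, fewer cells of a type and less RNA per cell cannot be told apart.

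Many of the genes lie side by side in the mouse genome (coordinates of GRCm38). The theta class stands on chromosome 10 between 75774115 and 75837424 as Gstt3, Gstt1, Gstt4 and Gstt2, and the mu class, with 7 members, on chromosome 3 between 107895821 and 108044894. Gstt1 (ENSMUSG00000001663) spans 75783813 to 75798584 and Gstt3 (ENSMUSG00000001665) 75774115 to 75781414, both on the minus strand, so the neighbors that fell together with rhWnt3a are separated by a short interval. Gstm1 (ENSMUSG00000058135) spans 108012255 to 108017973 on the minus strand of chromosome 3. Sod3 (ENSMUSG00000072941) lies on chromosome 5 (52363791 to 52371418, plus strand) and Mgst3 (ENSMUSG00000026688) on chromosome 1 (167371966 to 167393841, minus strand).

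The 250 bases before the RefSeq start sites (GRCm38.p6) of the 3 transferases called with rhWnt3a are printed, because all 3 fell with rhWnt3a. Those of Prdx1, the peroxiredoxin with the highest level, are printed as an example of a window that holds the core of the antioxidant response element. Capitals mark that core, which reads TGACTCAGC on the strand opposite to Prdx1, and the capitals begin 133 bases before the start. The Gstt1 window lies inside the gene as the deposited table bounds it, since RefSeq places the start further downstream. For Gstt3 and Gstm1 a second RefSeq start lies nearby and its window overlaps the printed window.
Gstt1, chr10:75797732-75797981, minus strand: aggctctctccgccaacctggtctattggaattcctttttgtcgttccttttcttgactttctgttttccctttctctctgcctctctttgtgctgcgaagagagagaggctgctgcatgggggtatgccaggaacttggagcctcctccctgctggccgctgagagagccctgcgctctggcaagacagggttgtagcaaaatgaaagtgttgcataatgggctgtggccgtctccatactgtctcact
Gstt3, chr10:75781415-75781664, minus strand: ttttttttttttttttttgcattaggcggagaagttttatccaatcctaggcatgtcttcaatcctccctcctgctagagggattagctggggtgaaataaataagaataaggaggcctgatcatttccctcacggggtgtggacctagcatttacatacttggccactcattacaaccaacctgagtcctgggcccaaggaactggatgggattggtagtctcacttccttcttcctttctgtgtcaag
Gstm1, chr3:108017974-108018223, minus strand: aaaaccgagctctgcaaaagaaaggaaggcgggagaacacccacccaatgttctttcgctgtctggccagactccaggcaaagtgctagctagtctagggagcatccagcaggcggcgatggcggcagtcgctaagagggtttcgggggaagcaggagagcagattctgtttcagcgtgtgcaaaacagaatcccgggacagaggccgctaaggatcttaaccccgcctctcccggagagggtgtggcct
Prdx1, chr4:116685349-116685598, plus strand: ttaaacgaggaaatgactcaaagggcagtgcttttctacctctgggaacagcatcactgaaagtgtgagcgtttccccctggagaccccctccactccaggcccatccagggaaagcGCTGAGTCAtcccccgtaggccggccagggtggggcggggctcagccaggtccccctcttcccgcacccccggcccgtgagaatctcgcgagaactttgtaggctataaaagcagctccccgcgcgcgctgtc

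Both strands of each window were searched for the core of the antioxidant response element, TGACNNNGC, where NRF2 binds, and for the TCF/LEF motif CTTTGAT, where the partners of β-catenin bind. Windows were matched for 39 of the 44 genes, and 6 of them held the core of the antioxidant response element, against 11.5% of 27025 genes. These were Gsta3, Gstm5, Gstm7, Mgst1, Prdx1 and Sod1, of which the last 2, with Gstm5 and Mgst1, were among the 24 tested members with a window. The TCF/LEF motif was in 0 of 39 member windows and in 3.72% of all genes, so no member held both. Gstt1, Gstt3 and Gstm1 held neither set of letters, and the promoter of Sod3 was not analysed here.

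Levels per transcript length, in the FPKM (fragments scaled to gene length and library size) that the authors deposited, spread widely among the tested members. Gpx4, which reduces peroxides of membrane lipids, had the highest level of all, at 360 ± 82.8 FPKM with vehicle, 296 ± 80.3 with rhWnt3a and 216 ± 115 with rhWnt3a and OSMI (mean ± SD, n = 3 each), and made up 67.4% of the summed FPKM of its family. Gstp1, the pi-class transferase, led the cytosolic transferases with 137 ± 29.03, 156 ± 31.0 and 146 ± 44.3 FPKM. Neither gene stood apart between groups beyond the spread of its libraries.

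Prdx1, a cytosolic peroxiredoxin, followed with 134 ± 32.5, 131 ± 31.3 and 112 ± 53.1 FPKM. Sod1, the copper-zinc dismutase of the cytosol, was the highest dismutase at 28.8 ± 2.29, 32.1 ± 9.06 and 21.7 ± 9.30 FPKM. Mgst1, a microsomal transferase, had 10.4 ± 1.05, 16.0 ± 3.41 and 12.4 ± 5.20 FPKM. None of these 3 was called by edgeR in any comparison. Peroxisomal catalase and glutathione reductase were at similar levels with vehicle, 26.1 ± 3.81 and 28.1 ± 1.97 FPKM. At the low end stood Gstt1, Gpx3, Gsto2, Gstt3 and Gstt2, so that the theta-class genes that changed most were among the least abundant members. Reads of some members can be shared with near copies: transcripts of other genes at least 97% identical over 100 bases or more covered 86.1% of Gstp1, 73.7% of Gpx4, 72.5% of Sod1 and 51.0% of Gstm1 (by Gstm2-ps1), but 0% of Gstt1, Sod3 and Mgst3, and 27.9% of Gstt3 (by Gm20441, an overlapping gene with 1 count in all).

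**Figure D1:**
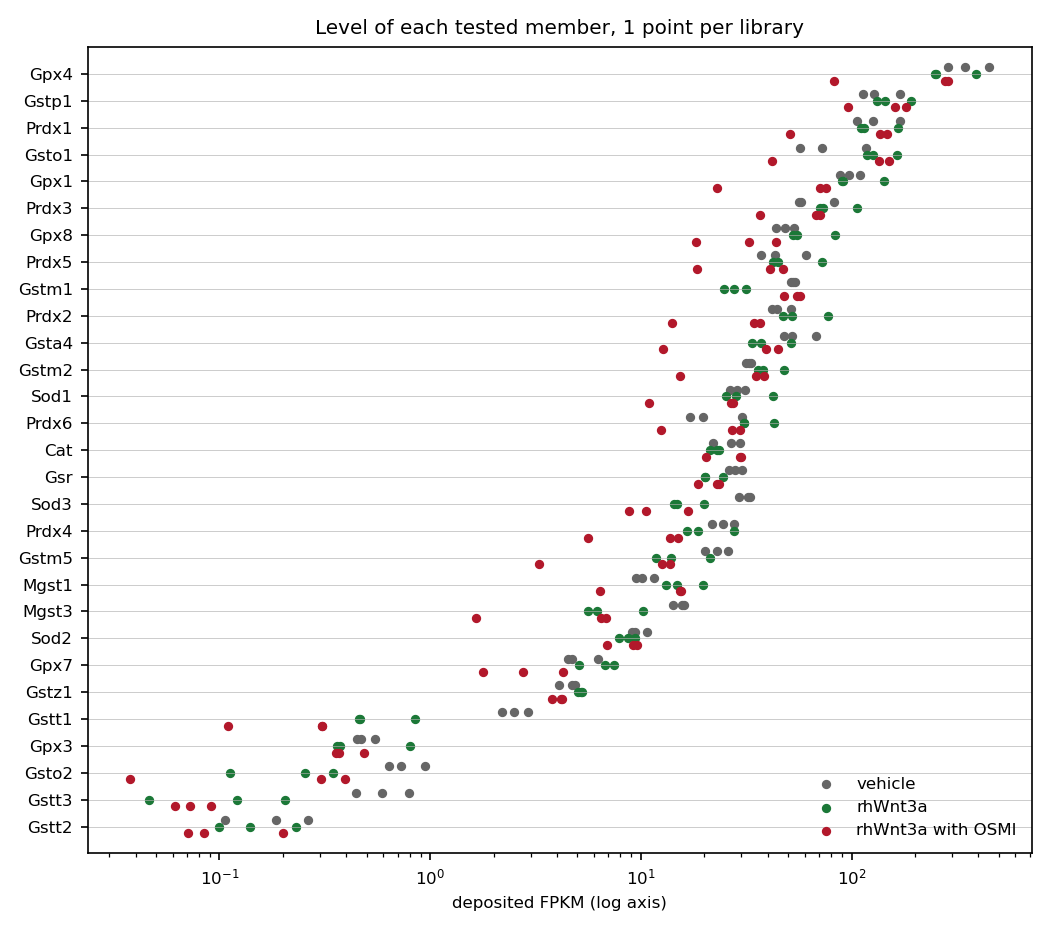
Deposited FPKM (horizontal log axis) of the 29 tested members (rows), with 1 point for each of the 9 libraries, colored by group. Gpx4 is at the top and the theta-class gene Gstt2 at the bottom, and the rhWnt3a points of Gstm1 lie below those of both other groups.

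Before the comparisons, the libraries themselves have to be described, since they stood apart within their groups. Over all tested genes, 54.8% of the within-group variance fell on 1 axis, with vehicle replicate 3, rhWnt3a replicate 2 and replicates 1 and 2 of rhWnt3a with OSMI on one side of it and the other 5 libraries on the opposite side. The deviation of a gene from its group mean went with its length, with Spearman coefficients of −0.46 to 0.39 across the 14004 genes of a library (a description across genes, which share depth and composition). The members were short genes, with a median length of 1968 bases against 4039.5 for all tested genes, and 25 of 29 were shorter than the latter. They moved with this axis: the median deviation of the members from their group means on the log2 scale was −0.12, −0.06 and 0.16 in the vehicle libraries, in the order of their replicate numbers. For rhWnt3a it was −0.19, 0.35 and −0.15, and for rhWnt3a with OSMI 0.41, 0.38 and −0.81. Replicate 3 of rhWnt3a with OSMI was the lowest of its group for 24 of 29 members, and all members made up 0.118% of its counts against 0.238% to 0.361% elsewhere.

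**Figure D2:**
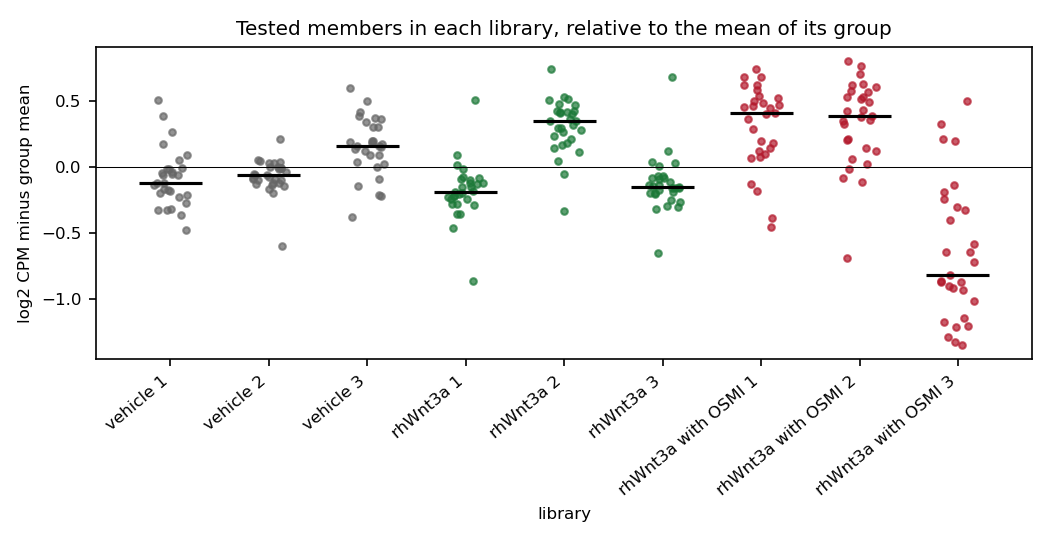
Deviation of each of the 29 tested members from the mean of its group (vertical, log2 CPM) in each of the 9 libraries, with 1 point per member and the median as a bar. The medians run from −0.81 in replicate 3 of rhWnt3a with OSMI to 0.41 in replicate 1 of that group.

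The comparison of rhWnt3a with vehicle asks how these genes respond to Wnt. Of the 29 tested members, 4 fell and 0 rose, where 8.78% of all tested genes were called (2.92% higher and 5.86% lower). An unadjusted p under 0.05 was reached by 7 members in the edgeR test, and by the same thresholds the Wald test of DESeq2 called 7, with Mgst1 as the only rise. DESeq2 also called more of all tested genes than edgeR, with the counts given in the closing section. For an unadjusted p without a fold threshold, here and in the comparisons below, the share of all tested genes was not counted. The median log2 fold change of the members was −0.03 with 14 up and 15 down, against 0.04 for all genes, and it was −0.21 without rhWnt3a replicate 2 and 0.12 without vehicle replicate 3. Groups did not overlap for 12 members, 5 higher and 7 lower with rhWnt3a, whereas 26.4% of all tested genes had no overlap (12.2% higher and 14.2% lower). The 4 that fell were 3 of 11 tested cytosolic transferases and 1 of 3 dismutases. The 5 tested glutathione peroxidases, 6 peroxiredoxins and 2 microsomal transferases, catalase and glutathione reductase had no call. Of these, an unadjusted p under 0.05 in edgeR was reached by 0 peroxidases, 0 peroxiredoxins, 1 microsomal transferase (Mgst3) and glutathione reductase, and DESeq2 called Mgst1 and Mgst3. Log2 fold changes ran from −0.28 (Gpx4) to 0.40 (Gpx8) among the glutathione peroxidases and from −0.22 (Prdx4) to 0.64 (Prdx6) among the peroxiredoxins.

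Gstm1, a mu-class transferase, stood at 76.7, 78.9 and 81.0 CPM in the vehicle libraries and at 41.6, 47.2 and 37.7 with rhWnt3a. Every rhWnt3a library was far below every vehicle library, and the spread within each group was small. The decrease was 1.87-fold (log2 fold change −0.90, SE 0.13, edgeR adjusted p = 0.00218). Markers of dividing cells, with 5 of 5 at 10 counts or more in every library, moved in the same direction, from a summed 8.08 to 10.9 FPKM with vehicle to 3.82 to 4.79 with rhWnt3a, and their part in this result was not tested.

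Gstt1, a theta-class transferase, had 3.36, 4.52 and 3.90 CPM with vehicle and 0.730, 1.31 and 0.718 with rhWnt3a, from 55, 71 and 69 counts and 12, 23 and 12 counts. All rhWnt3a values lay below all vehicle values, with a 4.23-fold decrease (log2 fold change −2.08, SE 0.36, edgeR adjusted p = 0.00503). Its neighbor Gstt3 had 3.05, 2.29 and 1.75 CPM with vehicle and 0.183, 0.796 and 0.479 with rhWnt3a, from 50, 36 and 31 counts and 3, 14 and 8 counts. Here too the groups did not overlap, although the rhWnt3a libraries differed several-fold among themselves. The decrease of Gstt3 was 4.77-fold (−2.25, SE 0.45, edgeR adjusted p = 0.0110), with rhWnt3a replicate 1, at 3 counts, not to be told from no expression. The theta gene at the far end of the cluster, Gstt2, had 0.779 ± 0.327 CPM with vehicle and 0.664 ± 0.276 with rhWnt3a (log2 fold change −0.23, SE 0.52, edgeR adjusted p = 0.891). The call of Gstt3 was lost without vehicle replicate 1 (edgeR adjusted p = 0.0551) and without rhWnt3a replicate 3 (0.0577), and with either of these libraries left out 2 members were called, Gstm1 and Gstt1.

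Sod3, the secreted dismutase that protects the extracellular matrix, had 109, 122 and 127 CPM with vehicle and 56.7, 75.0 and 55.2 with rhWnt3a. The vehicle libraries were all higher than the highest rhWnt3a library. It fell 1.91-fold (log2 fold change −0.93, SE 0.22, edgeR adjusted p = 0.0259). This call was lost when vehicle replicate 1, 2 or 3 or rhWnt3a replicate 1 or 3 was left out (edgeR adjusted p = 0.0696, 0.108, 0.0592, 0.136 and 0.118), with log2 fold changes of −1.09 to −0.84 over all 9 such fits. The intracellular dismutases had smaller differences: Sod1 measured 116 ± 10.5 and 130 ± 35.4 CPM and mitochondrial Sod2 98.6 ± 9.31 and 88.4 ± 7.10, with log2 fold changes of 0.16 and −0.16 (edgeR adjusted p = 0.869 and 0.693). Markers of fat cells, taken as a sum, were lower with rhWnt3a than with vehicle, as were Gstt1, Gstt3 and Sod3. The sum was 11.98 to 14.2 FPKM with vehicle, 3.01 to 3.75 with rhWnt3a and 3.96 to 4.51 with rhWnt3a and OSMI. Of the 6 markers, 3 had 3 counts or fewer in every library, with Cidec at 0. The 2 main markers of this sum differed in their course. Pparg had 7.34 to 8.90, 2.25 to 2.57 and 3.61 to 3.97 FPKM in the same order of groups. Fabp4 had 4.49 to 5.33, 0.74 to 1.17 and 0.20 to 0.56 FPKM. With OSMI added, Pparg and the sum were thus higher than with rhWnt3a alone, and Fabp4 was lower. The means of Gstt1, Gstt3 and Sod3 were also lower with OSMI added than with rhWnt3a alone. The summed level of 6 osteoblast markers, 2 of them at 10 counts or more in every library and 2 at 3 or fewer, was 1030 to 1610, 760 to 1097 and 347 to 556 FPKM in the same order of groups. Nearly all of this sum was Spp1, at 1023 to 1605 FPKM with vehicle. Runx2 went the other way with OSMI, at 4.9 to 6.5 FPKM with vehicle, 5.1 to 7.0 with rhWnt3a and 7.3 to 10.9 with rhWnt3a and OSMI. The summed level of the stromal markers was 2526 to 3457, 1939 to 2263 and 1043 to 2007 FPKM. The part of these lists in the results for Gstt1, Gstt3, Sod3 and Mgst3 was not tested.

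Among members without a call, Mgst3, a microsomal transferase and peroxidase, had the largest difference after Gsto2. It went from 17.6, 17.4 and 15.9 CPM with vehicle to 6.94, 11.4 and 6.34 with rhWnt3a (log2 fold change −1.04, SE 0.42, edgeR adjusted p = 0.194), with no overlap between groups. Gsto2, an omega-class transferase, had only 1.21 ± 0.231 and 0.375 ± 0.185 CPM (−1.67, SE 0.59, edgeR adjusted p = 0.133). Gsr went from 78.3 ± 6.08 to 60.9 ± 6.72 CPM (−0.36, SE 0.14, edgeR adjusted p = 0.183), also without overlap. In the other direction, without a call, stood Gsto1, which reduces dehydroascorbate, at 165 ± 64.6 and 274 ± 46.4 CPM (0.73, SE 0.43, edgeR adjusted p = 0.419). Prdx6, the peroxiredoxin that uses glutathione, had 109 ± 35.4 and 171 ± 31.4 CPM (0.64, SE 0.33, edgeR adjusted p = 0.326), and Mgst1 had 21.2 ± 2.33 and 32.8 ± 6.69 CPM (0.63, SE 0.31, edgeR adjusted p = 0.302). Without replicate 3 of rhWnt3a with OSMI, whose spread enters the shared estimate, 7 members were called in this comparison: Mgst3 and Gsto2 were added as lower and Mgst1 as higher.

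**Figure D3:**
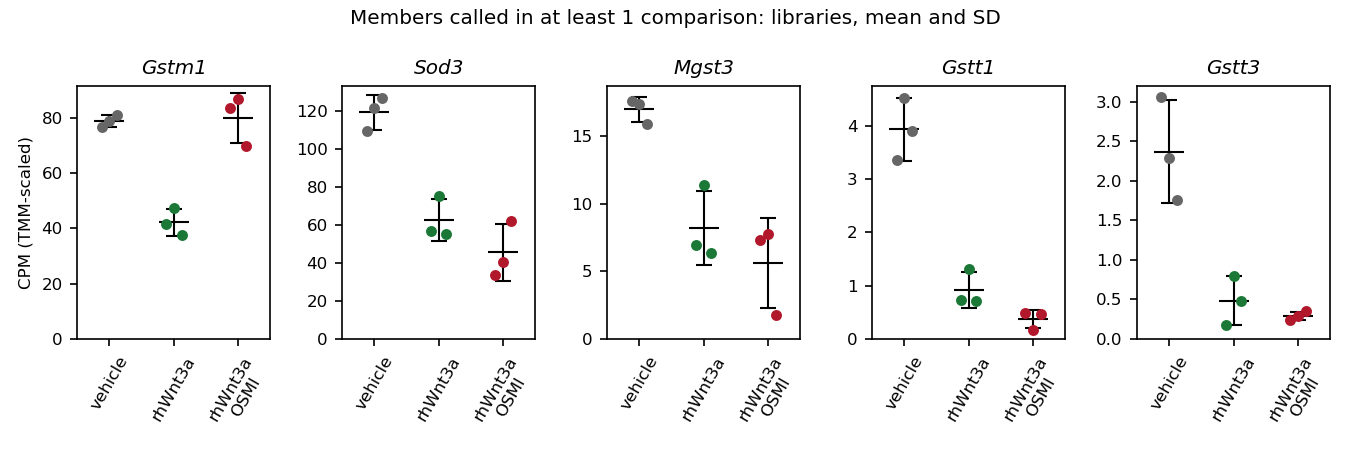
TMM-scaled CPM of the 5 members called in at least 1 comparison, with 1 point per library, the mean as a horizontal line and the SD as an error bar (n = 3 per group, each panel with its own axis from 0). Gstm1 is low with rhWnt3a alone, and Sod3, Mgst3, Gstt1 and Gstt3 are below vehicle in both treated groups.

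Adding OSMI to rhWnt3a asks what OSMI changes in cells that also receive rhWnt3a. With no group given OSMI alone, a change in the Wnt response could not be told from an effect of OSMI apart from Wnt. By the test, 1 of 29 members rose and 0 fell, against 4.74% of all tested genes (1.69% higher and 3.05% lower). The member was Gstm1, at 41.6, 47.2 and 37.7 CPM with rhWnt3a and at 83.4, 86.6 and 69.7 with rhWnt3a and OSMI. Every library with OSMI was above every library with rhWnt3a alone. The increase was 1.90-fold (log2 fold change 0.92, SE 0.13, edgeR adjusted p = 0.00582), and the OSMI libraries overlapped with vehicle (0.02, SE 0.13, edgeR adjusted p = 0.939). The dividing-cell markers were again higher with OSMI, at 6.27 to 14.6 FPKM. Their part was not tested.

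The other members leaned downward, with 26 of 29 lower and a median log2 fold change of −0.45 against −0.01 for all genes. In edgeR 8 members had an unadjusted p under 0.05, and groups did not overlap for 9 members, 1 higher and 8 lower, against 33.7% of all tested genes (16.7% higher and 17.0% lower). Without replicate 3 of rhWnt3a with OSMI, the library in which members were lowest, 20 of 29 members were lower and the median was −0.23. Leaving out rhWnt3a replicate 2 instead gave 22 of 29 lower and a median of −0.27. With the trend of gene length taken out, an alternative chosen after seeing the data, 24 were lower and the median was −0.25. Gstt1 had the lowest log2 fold change in this comparison (−1.29), and within the sides of the axis its values were −1.77 and −0.53. Those of Gpx7 were −1.08 and −1.72, those of Prdx2 −1.10 and −1.85, and those of Gpx8 −1.12 and −1.60.

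Gpx7, a peroxidase of the endoplasmic reticulum, had 8.94, 9.72 and 6.76 CPM with rhWnt3a alone and 5.62, 3.67 and 2.27 once OSMI was added. The groups did not overlap, and the log2 fold change was −1.14 (SE 0.31, edgeR adjusted p = 0.0675). Gpx8, which lies in the same compartment, had 56.9, 88.3 and 59.3 CPM and then 35.0, 47.2 and 19.1 (−1.01, SE 0.29, edgeR adjusted p = 0.0819), again with no overlap. Neither passed the threshold, but both were called by DESeq2, with the length trend taken out (edgeR adjusted p = 0.0437 and 0.0403) and when all genes with any count were kept (0.00368 and 5.66e-04). With the length trend and the replicate block together their adjusted p in edgeR was 0.0733 and 0.0638. Without replicate 1 of rhWnt3a with OSMI, Gpx7 was called as lower, and without replicate 3 of that group Sod3 was, making 2 members in either case.

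All 5 tested glutathione peroxidases and all 6 peroxiredoxins had lower means with OSMI added, with log2 fold changes of −1.14 to −0.35 and of −1.05 to −0.22, and none was called by edgeR. Groups did not overlap for 3 of these peroxidases and 3 of these peroxiredoxins, all lower, against 33.7% of all tested genes (17.0% lower). For Prdx1 the lower mean came from replicate 3 of rhWnt3a with OSMI, at 155 CPM. Replicates 1 and 2 of that group had 428 and 464 CPM, against 347, 513 and 358 with rhWnt3a alone. The peroxiredoxins with the largest differences were Prdx2 of the cytosol, at 183 ± 48.9 and 88.5 ± 39.8 CPM (log2 fold change −1.05, SE 0.33, edgeR adjusted p = 0.104), and Prdx4 of the endoplasmic reticulum, at 45.1 ± 12.3 and 24.8 ± 11.3 CPM (−0.87, SE 0.34, edgeR adjusted p = 0.166). The groups did not overlap for either gene. Gpx1, the cytosolic selenium peroxidase, had 159 ± 42.4 and 83.1 ± 43.7 CPM (−0.94, SE 0.38, edgeR adjusted p = 0.187). Gstz1, which isomerizes maleylacetoacetate in tyrosine breakdown, had a small spread and a small difference, 26.7 ± 0.872 against 21.04 ± 1.67 CPM (−0.35, SE 0.13, edgeR adjusted p = 0.148). Gsr had 60.9 ± 6.72 and 60.8 ± 8.47 CPM, and Sod2 had 88.4 ± 7.10 and 87.4 ± 16.3 CPM. The 95% intervals of their log2 differences ran from −0.32 to 0.32 for Gsr and from −0.37 to 0.33 for Sod2.

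Against vehicle, the cells with rhWnt3a and OSMI had 4 lower members of 29 and 0 higher, where 14.2% of all tested genes were called (4.84% higher and 9.34% lower). This comparison shares its libraries with the other comparisons and adds no separate sample. Groups did not overlap for 12 members, all lower, against 38.8% of all tested genes (19.5% lower), and 9 had an unadjusted p under 0.05. DESeq2 called 6 members, all lower, adding Gstm5 and Prdx4, and also called more of all tested genes than edgeR. The median log2 fold change was −0.40, with 6 up and 23 down, against −0.01 for all genes.

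Gstt1 had 0.484, 0.172 and 0.466 CPM in the libraries with OSMI, from 8, 3 and 8 counts, against 3.36 to 4.52 with vehicle. All 3 were below every vehicle library, and replicate 2, at 3 counts, could not be told from no expression. The decrease was 10.4-fold (log2 fold change −3.37, SE 0.40, edgeR adjusted p = 5.34e-04), whereas the step from rhWnt3a to rhWnt3a with OSMI measured −1.29 on the log2 scale (SE 0.44, edgeR adjusted p = 0.121). Gstt3 had 0.242, 0.287 and 0.350 CPM from 4, 5 and 6 counts, a 7.89-fold decrease (−2.98, SE 0.48, edgeR adjusted p = 0.00278). Both theta genes were thus near the limit of detection in this group.

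Sod3 measured 33.7, 40.6 and 62.2 CPM with rhWnt3a and OSMI, below all vehicle libraries and overlapping those with rhWnt3a alone. It was 2.62-fold lower than with vehicle (log2 fold change −1.39, SE 0.22, edgeR adjusted p = 0.00274), and the difference from rhWnt3a alone was −0.45 (SE 0.22, edgeR adjusted p = 0.254). Mgst3 measured 7.32, 7.75 and 1.81 CPM, with replicate 3 far below the others, and was 3.01-fold lower than with vehicle (−1.59, SE 0.43, edgeR adjusted p = 0.0345). The call of Mgst3 was lost without vehicle replicate 1, 2 or 3, rhWnt3a replicate 1 or replicate 1 of rhWnt3a with OSMI (edgeR adjusted p = 0.0863, 0.0956, 0.0579, 0.0541 and 0.0553). Prdx4 came next without a call (52.6 ± 6.63 against 24.8 ± 11.3 CPM, −1.09, SE 0.34, edgeR adjusted p = 0.0562), followed by Gstm5 (29.8 ± 4.05 against 13.0 ± 7.63 CPM, −1.20, SE 0.44, edgeR adjusted p = 0.0949). Cat was close to vehicle at 69.1 ± 9.37 and 70.9 ± 15.7 CPM (0.04, SE 0.18, edgeR adjusted p = 0.911).

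The other tested members were Gsta4, Gstm2, Prdx3, Prdx5 and Gpx3. Gsta4, an alpha-class transferase that conjugates the lipid oxidation product 4-hydroxynonenal, had 71.9 ± 14.1 CPM with vehicle, 52.5 ± 11.7 with rhWnt3a and 41.6 ± 22.5 with OSMI added, the last without overlap with vehicle (log2 fold change −0.79, SE 0.39, edgeR adjusted p = 0.204). Gstm2, of the mu class like Gstm1, had 55.4 ± 1.81, 69.6 ± 10.2 and 51.1 ± 22.1 CPM, so its mean was highest in the group where that of Gstm1 was lowest. The mitochondrial Prdx3 had 98.0 ± 22.8, 126 ± 28.0 and 88.3 ± 29.7 CPM. Prdx5, found in several compartments, followed the same order with 102 ± 27.6, 116 ± 35.7 and 77.7 ± 33.9 CPM, and the secreted Gpx3 was scarce throughout at 0.900 ± 0.103, 0.949 ± 0.474 and 0.743 ± 0.115 CPM. None of these 5 was called by edgeR or DESeq2 in any comparison.

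**Figure D4:**
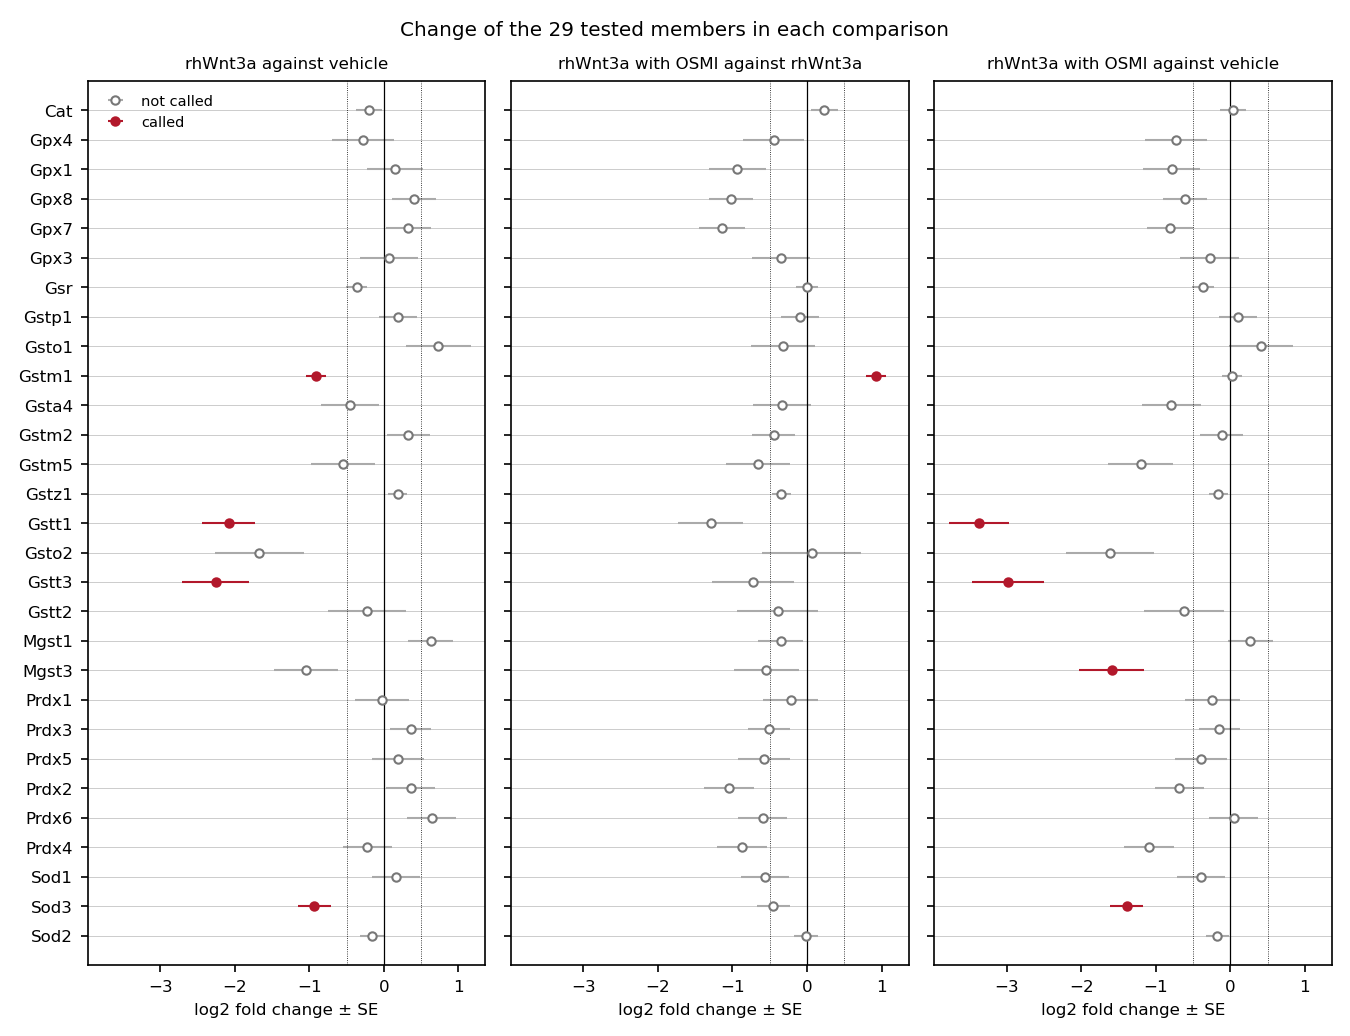
Log2 fold change (horizontal, with SE as a bar) of the 29 tested members in the 3 comparisons, with called members filled in red and dotted lines at a log2 fold change of 0.5 in size. Gstm1 lies to the left in the first panel and to the right in the second, and 26 of 29 members lie to the left of 0 in the second.

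Taken on each side of the library axis, the called members had the same sign as in the whole set. Since their groups did not overlap, any split of the libraries returns that sign, so the sign is no check and only the sizes are given. With rhWnt3a the log2 difference from vehicle was −0.78 and −0.97 for Gstm1, −1.50 and −2.25 for Gstt1, −1.03 and −2.71 for Gstt3, and −0.76 and −1.04 for Sod3. These values stand on 1 library against 1 on one side and 2 against 2 on the other, and carry no test. With OSMI added, Gstm1 was higher by 0.85 and 0.81, on 2 libraries against 1 and 1 against 2. Mgst3 against vehicle was −1.07 on the side with OSMI replicates 1 and 2 and −3.19 on that with replicate 3. With the trend of gene length taken out, chosen after seeing the data, 5, 3 and 6 members were called in the comparisons in the order given, and 5, 1 and 5 with the replicate block as well. Mgst3 was among those lower with rhWnt3a in both fits. Over all tested genes, the fit without the length trend also called more in each comparison than the main fit. With the block as well, fewer of all tested genes were called than in the main fit, with all counts given in the closing section.

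The 15 members left out of the test were near the limit of detection. Gsta1, an alpha-class transferase, had 9, 7 and 19 counts with vehicle, 1, 1 and 0 with rhWnt3a alone and 2, 3 and 4 once OSMI was added, but Gsta2 and Gm3776 are near-identical over its whole transcript, so these counts cannot be assigned with certainty. Gstm7 had 16, 7 and 11 counts with vehicle, 4, 3 and 3 with rhWnt3a alone and 1, 1 and 3 once OSMI was added, so both treated groups were below every vehicle library. Gstm6, Gstp2, Mgst2 and Gsta3 reached 18, 14, 12 and 12 counts at most, and the groups of Gstm6 all overlapped. Gsta3 had 3, 1 and 4 counts with vehicle, 9, 12 and 4 with rhWnt3a alone and 10, 10 and 5 once OSMI was added. Its libraries with OSMI were thus above every vehicle library. Mgst2 had 12, 8 and 10 counts with rhWnt3a alone and 3, 5 and 3 once OSMI was added, without overlap. Gstp2 had 3, 13 and 7 counts with rhWnt3a alone and 2, 1 and 2 once OSMI was added, with no overlap between these groups, but its reads can be shared with Gstp1. Gsta2, Gstm3, Gstm4, Gstp3 and Gstt4 had at most 3 counts in any library, and a difference between groups could not be seen at this depth. Of all 44 members, 13 overlap another gene, and since the strandedness of the counting is not given, reads of Gsto1 and Gsto2 cannot be told from those of Cfap43 on the opposite strand. The same limit holds where Prdx2 overlaps Junb and Rnaseh2a, Gstz1 overlaps Pomt2, and Gstm5 overlaps 4933431E20Rik. It also holds for Sod1 with Scaf4, Prdx5 with Trmt112 and Gpx2 with Fntb.

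The genes around these enzymes were read from lists of glutathione synthesis, thioredoxins and glutaredoxins, NADPH supply, selenoprotein synthesis, metal delivery, sources of superoxide and peroxide, related folds and regulators, 70 genes in all of which 57 were tested. With rhWnt3a 2 of 57 rose and 5 fell (8.78% of all tested genes were called), with OSMI added 3 rose and 1 fell (4.74%), and with both against vehicle 10 rose and 8 fell (14.2%). Glutathione synthesis and breakdown, with 11 tested genes, had 2 higher and 0 lower with OSMI added and 3 higher and 0 lower against vehicle, while of the 6 tested regulators, NRF2 (Nfe2l2) and its inhibitor Keap1 among them, 0 were called by edgeR or DESeq2 in any comparison. In edgeR 1, 1 and 2 of them had an unadjusted p under 0.05 in the comparisons in that order, Keap1 with rhWnt3a, Foxo4 with OSMI added, and Foxo1 and Foxo4 against vehicle. The median log2 fold change of all 57 was 0.05, 0.11 and −0.02.

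Gclc, the catalytic subunit of glutamate-cysteine ligase and the rate-limiting enzyme of glutathione synthesis, had 76.8, 83.6 and 105 CPM with vehicle, 128, 125 and 129 with rhWnt3a alone and 238, 244 and 208 once OSMI was added. Its groups were fully separated at both steps. With OSMI added it rose 0.86 on the log2 scale (SE 0.14, edgeR adjusted p = 0.0108), and the first step of 0.52 was just short of the call (SE 0.14, edgeR adjusted p = 0.0513). Gclm, the modifier subunit of the same enzyme, had 71.0, 78.7 and 107 CPM, then 90.0, 91.8 and 97.9, then 226, 233 and 181. Only the libraries with OSMI stood apart, with a log2 rise of 1.19 over rhWnt3a (SE 0.17, edgeR adjusted p = 0.00582) and of 1.32 over vehicle (SE 0.17, edgeR adjusted p = 9.38e-04). The call of Gclc with OSMI added was lost with the replicate block (edgeR adjusted p = 0.0528) and without rhWnt3a replicate 3 (0.0558).

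Srxn1, sulfiredoxin, which repairs overoxidized peroxiredoxins, had 58.9, 63.7 and 81.9 CPM with vehicle, 93.3, 87.4 and 90.4 with rhWnt3a alone and 209, 180 and 131 once OSMI was added. All OSMI libraries were above the rest, and the log2 rise over rhWnt3a was 0.94 (SE 0.19, edgeR adjusted p = 0.0229). This call was lost with the replicate block (edgeR adjusted p = 0.0833) and without rhWnt3a replicate 1, 2 or 3 or replicate 1 or 2 of rhWnt3a with OSMI (0.0682, 0.0664, 0.0922, 0.0759 and 0.0732). Txnip, the inhibitor of thioredoxin, had 207, 209 and 228 CPM, then 151, 181 and 136, then 78.4, 83.2 and 68.4, so each group was entirely below the group before it. It fell by 1.03 on the log2 scale with OSMI added (SE 0.14, edgeR adjusted p = 0.00520) and by 1.49 against vehicle (SE 0.14, edgeR adjusted p = 1.74e-04). Txnrd1, cytosolic thioredoxin reductase, had 257, 293 and 355 CPM with vehicle, 537, 512 and 531 with rhWnt3a alone and 807, 715 and 660 once OSMI was added. It rose with rhWnt3a (log2 fold change 0.81, SE 0.16, edgeR adjusted p = 0.00962) and was 1.27 above vehicle with OSMI (SE 0.16, edgeR adjusted p = 6.97e-04). Of the 11 named surrounding genes with a promoter window, 2 held the core of the antioxidant response element, Gclm and Txnrd1, against 11.5% of all genes, and Srxn1 and Txnip did not.

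Of the genes lower with rhWnt3a, Sesn1, a sestrin, went from 104 ± 4.13 to 57.4 ± 7.23 CPM (log2 fold change −0.85, SE 0.13, edgeR adjusted p = 0.00233) and stayed at 56.6 ± 3.66 with OSMI. Glutaredoxin (Glrx) went from 24.7 ± 1.78 to 12.01 ± 2.62 CPM (−1.04, SE 0.26, edgeR adjusted p = 0.0337), the NADPH oxidase Nox4, a source of hydrogen peroxide, from 8.52 ± 1.45 to 4.85 ± 0.433 (−0.81, SE 0.18, edgeR adjusted p = 0.0212), and Ggt7 from 8.31 ± 1.05 to 4.38 ± 1.18 (−0.92, SE 0.24, edgeR adjusted p = 0.0368). Idh2, the mitochondrial isocitrate dehydrogenase that yields NADPH, went from 211 ± 5.95 to 141 ± 26.7 CPM (−0.58, SE 0.15, edgeR adjusted p = 0.0413) and to 95.3 ± 9.21 with OSMI (−1.15 against vehicle, SE 0.15, edgeR adjusted p = 0.00106). Aox1, an aldehyde oxidase, rose from 23.1 ± 5.17 to 40.8 ± 8.58 CPM (0.82, SE 0.21, edgeR adjusted p = 0.0381), and Pgd, which makes NADPH in the pentose phosphate pathway, was at 135 ± 28.2 CPM with vehicle and 303 ± 78.5 with OSMI (1.16, SE 0.22, edgeR adjusted p = 0.00699). Of these rhWnt3a calls, that of Sesn1 held in all 20 alternatives tried, and those of Glrx, Nox4, Ggt7, Idh2 and Aox1 in 15, 14, 13, 10 and 10. Without vehicle replicate 1 or 2 or rhWnt3a replicate 1 or 3, 2 of the 57 were called with rhWnt3a, and without replicate 2 of rhWnt3a with OSMI 4 were. With OSMI added, 2 were called without rhWnt3a replicate 3.

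**Figure D5:**
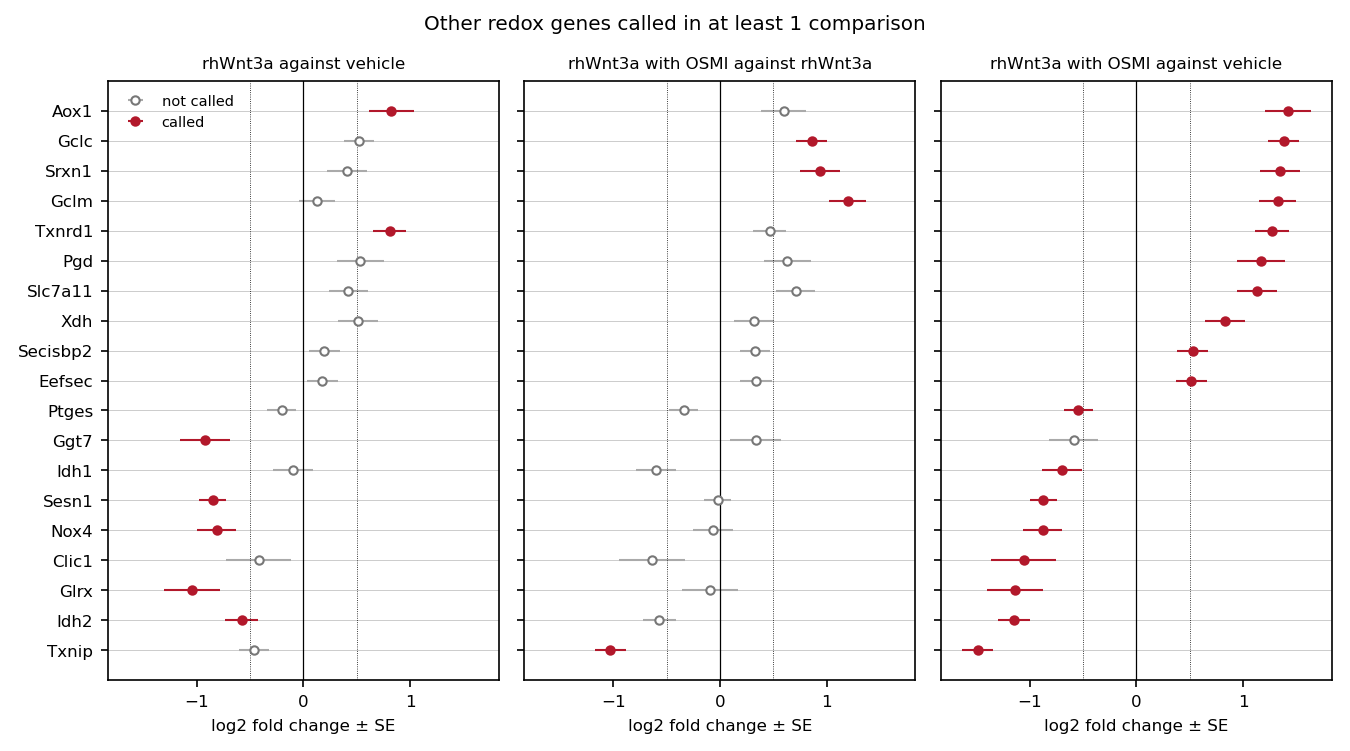
Log2 fold change (horizontal, with SE as a bar) of the 19 genes of the surrounding lists that were called in at least 1 comparison, in the 3 comparisons, with called genes filled in red and dotted lines at 0.5 in size. Gclc, Gclm and Srxn1 are called to the right when OSMI was added and Txnip to the left.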

How the data were processed

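Messenger RNA of ST2 cells was sequenced in 9 libraries, 3 per group. Reads were processed by the authors, whose notes name CASAVA, fastp, HISAT2 2.0.5, featureCounts 1.5.0-p3 and mm10. The strandedness and the gene annotation are not given in the sources used here. The deposited counts are reads per gene that the authors left without normalization. The FPKM values were computed by the authors from these counts and a gene length, and were used only to compare levels between genes. Columns with the authors' own comparisons (fold changes and p-values) were not used.

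The members were matched by symbol, and the members, lists and tests were chosen with earlier results of these data known. Tests on the counts used edgeR 4.0.16 in R 4.3.3 (filterByExpr with a minimum count of 10 and a minimum total of 15, TMM, glmQLFit on 3 groups without covariates, two-sided glmQLFTest), which was tested on simulated data. SE values came from the fit, and CPM were scaled by TMM. The genes reported by name were every member called in at least 1 comparison, the member with the highest FPKM in each family, Cat and Gsr, and of the surrounding lists at most 8 called genes per comparison by size of change. Other members were named for their range, among them those without overlap between groups. Keap1, Foxo1, Foxo4 and the genes added under single alternatives were named after their values were seen. Depth was 16135898 to 17583945 counts per library, and intervals and the level of 3 counts cover counting error only where no replicates enter.

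Replicate numbers from the sample titles showed no common pairing: the correlation of their deviations from the group means averaged −0.12 over 9 pairs (−0.49 to 0.44), and 3 pairs exceeded 0.1. With 3 libraries per group and much of this variation on 1 axis, these values cannot exclude a pairing. Alternatives were RLE size factors, library totals, other count filters, a replicate block, the first axis of the deviations as a covariate, the 6 libraries of a comparison, DESeq2 1.42.0, other thresholds, and leaving out each library. A correction of the gene-length trend within each library (lowess, span 0.3) was added later. Near-identical transcripts were searched with BLAST 2.17.0 in GENCODE M21, and promoter windows came from RefSeq (GRCm38.p6).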

Additional observations from a re-analysis of the deposited data

How the results depend on the processing

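Signs of the called members did not change under any of the alternatives run. Since their groups did not overlap, leaving out a library returns the same sign, so the sign is no check. Both calls of Gstm1 were kept in 20 of 20 alternatives, both of Gstt1 in 19 of 19, those of Gstt3 in 17 and 19 of 19 (rhWnt3a and rhWnt3a with OSMI against vehicle), those of Sod3 in 15 and 20 of 20, and that of Mgst3 in 14 of 20, being also lost in the fit of 6 libraries (edgeR adjusted p = 0.0570).

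In the comparison of rhWnt3a with vehicle, 4 members were called, and 2 with at least 10 counts asked of every library, 8 with the first axis of the deviations as a covariate, 7 with DESeq2 and 2 at a log2 fold change beyond 1. With OSMI added to rhWnt3a the count was 1, and 6 with any count kept, 11 with the axis, 3 with the length trend taken out, 3 with DESeq2, 7 on unadjusted p and 0 beyond a log2 fold change of 1. For rhWnt3a with OSMI against vehicle it was 4, and 13 with any count kept, 2 with at least 10 counts, 13 with the axis and 8 on unadjusted p. Of the surrounding genes, 7 were called with rhWnt3a, and 4 in the fit of 6 libraries and 1 beyond a log2 fold change of 1. With OSMI added 4 were called, and 9 with any count kept, 16 with the axis, 11 on unadjusted p and 2 beyond 1. Against vehicle 18 were, and 11 beyond 1. The axis was taken from the same libraries, so that p-values with it are too small, and the cause of these moves was not tested except where fewer genes enter (the 10-count filter leaves out Gstt1 and Gstt3).

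Leaving out a library gave 2 to 7 members with rhWnt3a (2 without vehicle replicate 1 or rhWnt3a replicate 3, 7 without replicate 3 of rhWnt3a with OSMI), 1 to 2 with OSMI added (2 without replicate 1 or 3 of rhWnt3a with OSMI) and 3 to 6 against vehicle. Surrounding genes ranged from 2 to 9 (2 without vehicle replicate 1 or 2 or rhWnt3a replicate 1 or 3, 4 without replicate 2 of rhWnt3a with OSMI), 2 to 6 (2 without rhWnt3a replicate 3) and 12 to 19. All genes ranged from 716 to 1506, 203 to 764 and 1218 to 2328.

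Whether the replicate numbers pair the libraries was not settled. With the number as a replicate block 4, 1 and 4 members, 3, 2 and 13 surrounding genes and 809, 233 and 1297 of all genes were called in the 3 comparisons, against 1230, 664 and 1986 of all genes without it. All genes came to 1552, 1481 and 2563 with any count kept, 2155, 2271 and 3186 on unadjusted p, 1578, 1065 and 2226 with DESeq2, 1218, 345 and 1728 in the fits of 6 libraries, 796, 380 and 1118 beyond a log2 fold change of 1, 2034, 2723 and 3581 with the axis, and 1523, 991 and 2238 with the length trend taken out (1194, 545 and 1754 with the block as well). Scaled by library totals, 329 rose and 353 fell with OSMI added (237 and 427 by TMM), and 957 rose and 1179 fell against vehicle (678 and 1308), while the members called were as before.

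Depth limits the theta-class transferases and the 15 untested members, whose values rest on few counts. With 3 libraries per group, no group with OSMI alone and 1 cell line, differences smaller than the spread between libraries were not detectable.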
